A study of Mus musculus with 9 samples.

Results

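The 9 genes described here encode receptors that platelets carry on their surface: *Itga2b*, *Itgb3*, *Gp1ba*, *Gp5*, *Gp9*, *Gp6*, *Clec1b*, *Treml1* and *Pear1*. They were chosen by gene name, and all 9 were found among the 56748 genes counted by RNA-seq in 9 libraries of mouse bone marrow SLAM-HSCs. These cells were sorted as Lin- Sca1+ c-Kit+ CD48- CD150+ cells from female C57BL/6 mice with no transgene or treatment named in the labels. The yHSC group came from mice of 6 to 10 weeks, and HSCs of mice of 14 to 16 months (pre-aged HSCs, paHSCs) were divided by surface P-selectin into Selp_low paHSCs and Selp_high paHSCs, with 3 libraries (n = 3) in each of the 3 groups. The comparisons ask how receptor transcripts differ between these groups. The paHSC fractions differ by the P-selectin gate within the same age range. The yHSCs were not divided by P-selectin, so that age and gate cannot be told apart in comparisons with them.

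Platelets are shed by megakaryocytes, and their receptors are made in the megakaryocyte before release. The integrin of *Itga2b* (CD41) and *Itgb3* (CD61) binds fibrinogen and joins platelets to each other, while the complex of *Gp1ba*, *Gp1bb*, *Gp9* and *Gp5* binds von Willebrand factor on an injured vessel wall. *Gp6* is a collagen receptor that signals through the Fc receptor gamma chain (*Fcer1g*), *Clec1b* encodes CLEC-2, the receptor for podoplanin, *Treml1* encodes a receptor stored in platelet alpha granules, and *Pear1* encodes a receptor that signals on platelet contact. Some HSCs are known to carry transcripts of the megakaryocyte lineage, and CD41 is known to mark part of the HSC pool.

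Levels are given as CPM, that is, read counts scaled by library size with TMM factors, and levels of different genes are compared as FPKM, which is CPM per kilobase of the gene length in the authors' file. Total counts ranged from 24866975 to 35375310 per library, so that 3 counts, the limit that a count of 0 allows, equal 0.0695 to 0.198 CPM (counting error only). *Selp*, the gene of the sorted protein, was at 20.5 to 30.0 CPM in yHSCs, 29.3 to 109 CPM in Selp_low paHSCs and 264 to 652 CPM in Selp_high paHSCs. All 16 genes of the HSC list were detected in all 9 libraries, but the list also holds *Cd34*, *Flt3* and *Cd48*, whose proteins are known on progenitors. The HSC list summed to 1857 to 4015 CPM in yHSCs, 1106 to 2004 CPM in Selp_low paHSCs and 2208 to 2849 CPM in Selp_high paHSCs. Its sums thus were also higher in Selp_high than in Selp_low paHSCs, without overlap. *Cd48*, the gene of a protein that the sort gate excludes, was at 174 and 309 CPM in Selp_low replicates 1 and 2 and at 11.6 to 38.6 CPM in the other 7 libraries. Some libraries stood apart in their transcripts of other cell types. B and plasma cell markers summed to 106362 CPM in Selp_low replicate 2, and neutrophil markers summed to 215489 CPM in Selp_low replicate 3, against 634 CPM in the lowest library. The 10 most abundant genes took 44.8% and 20.9% of the counts of these 2 libraries and 3.90 to 12.5% in the others. The 19 megakaryocyte and platelet markers other than receptors were detected in all 9 libraries and summed to 1527 to 1984 CPM in yHSCs, 1880 to 4018 CPM in Selp_low paHSCs and 5400 to 11501 CPM in Selp_high paHSCs, highest in Selp_high replicate 2. Endothelial markers summed to 174 to 363 CPM in yHSCs, 210.0 to 254 CPM in Selp_low paHSCs and 513 to 849 CPM in Selp_high paHSCs. Not all members followed the sum: *Cdh5* was at 0.371 to 1.64 CPM in yHSCs and 0.258 to 1.53 CPM in Selp_high paHSCs. *Tek* was at 24.8 to 50.3 CPM in yHSCs and 54.0 to 75.6 CPM in Selp_high paHSCs. This list of 12 genes holds *Vwf*, which is also a receptor ligand here. *Vwf* was at 15.7 to 25.3 CPM in yHSCs and 36.8 to 156 CPM in Selp_low paHSCs. In Selp_high replicates 1 to 3 it gave 151, 481 and 323 CPM of sums of 625, 849 and 513 CPM. The part of these markers in the receptor values was not tested. In bulk RNA, more cells carrying a transcript and more RNA per cell cannot be told apart.

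All 9 receptor genes were at their highest in Selp_high replicate 2. Together they took 0.0159 to 0.0356% of the counts in yHSCs, 0.0191 to 0.0582% in Selp_low paHSCs and 0.104 to 0.487% in Selp_high paHSCs. Replicate 1 was the lowest library for 6 of the 9 genes in Selp_high paHSCs, for 8 of the 9 in Selp_low paHSCs and for 6 of the 9 in yHSCs.

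**Figure D1:**
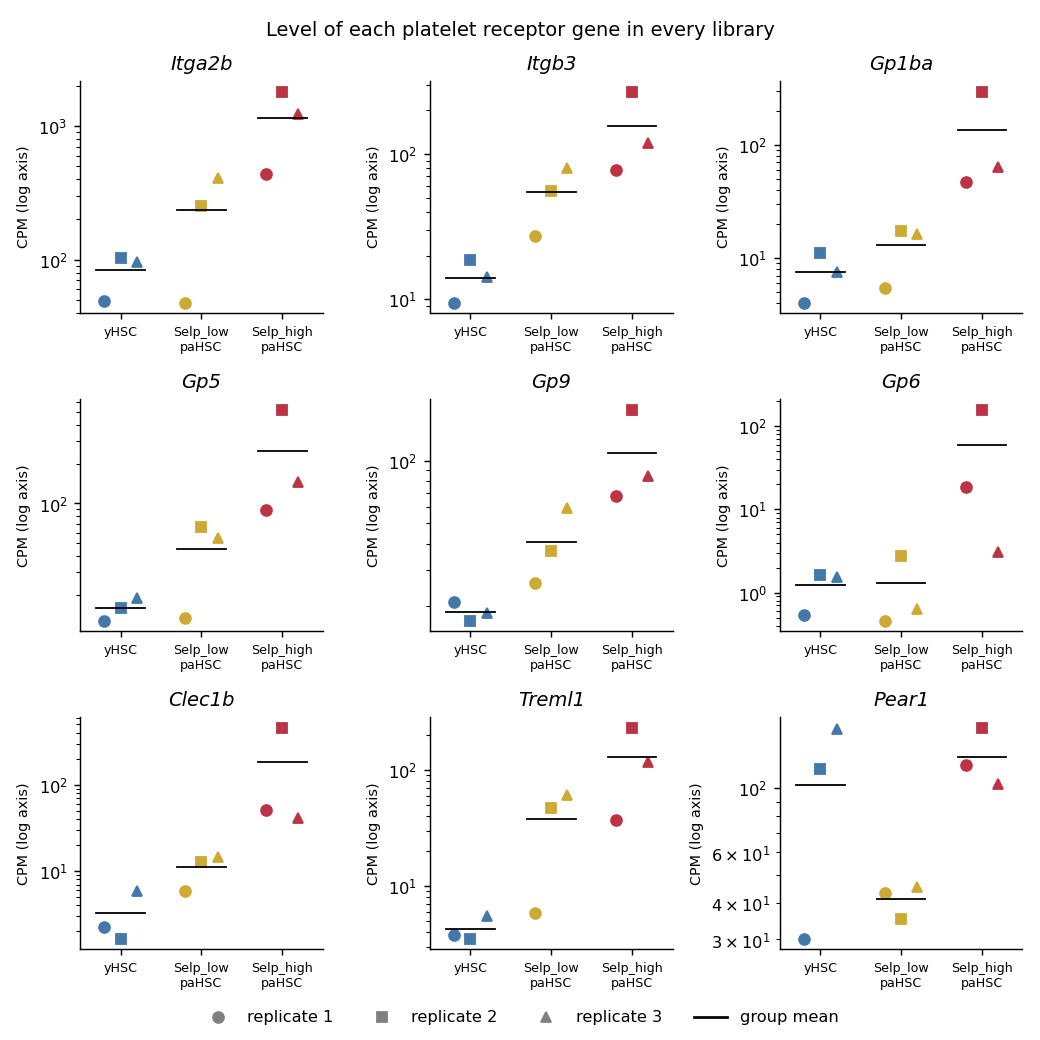
Level of each receptor gene in every library, as TMM-scaled CPM on a log axis with a range of its own in each panel; the marker shape gives the replicate number and the bar the mean of the 3 libraries of a group. Selp_high replicate 2 is the highest library in every panel, and the yHSC libraries of *Pear1* span 30.2 to 160.5 CPM.

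*Itga2b* (ENSMUSG00000034664, mm39 chr11:102344123-102360948, minus strand) was at 49.4, 103 and 96.9 CPM in yHSC replicates 1 to 3, at 47.6, 253 and 410.3 CPM in Selp_low paHSCs and at 441, 1815 and 1226 CPM in Selp_high paHSCs. The Selp_high libraries lay above all others, with the lowest of them close to the highest Selp_low library. *Itgb3* (ENSMUSG00000020689, chr11:104498826-104561302, plus strand) was at 9.48, 18.6 and 14.2 CPM in yHSCs, 27.3, 55.7 and 80.2 CPM in Selp_low paHSCs and 77.5, 268 and 119 CPM in Selp_high paHSCs. Here all 6 paHSC libraries lay above the yHSCs, but the 2 paHSC fractions overlapped, since Selp_high replicate 1 stood below Selp_low replicate 3. The protein products form a heterodimer, and the transcripts were not at equal levels: the FPKM of *Itga2b* exceeded that of *Itgb3* by 5.64 to 7.40 times in yHSCs, 1.89 to 5.54 times in Selp_low paHSCs and 6.16 to 11.1 times in Selp_high paHSCs.

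*Gp1ba* (ENSMUSG00000050675, chr11:70529948-70532862, plus strand), the chain that holds the von Willebrand factor site, was at 4.06, 11.1 and 7.60 CPM in yHSCs, 5.47, 17.5 and 16.3 CPM in Selp_low paHSCs and 47.3, 294 and 63.1 CPM in Selp_high paHSCs. Its Selp_high libraries did not overlap with either of the other groups, which overlapped with each other. *Gp5* (ENSMUSG00000047953, chr16:30126503-30129597, minus strand), a chain that thrombin cleaves, was at 12.7, 15.8 and 19.1 CPM in yHSCs, 13.5, 66.1 and 54.1 CPM in Selp_low paHSCs and 89.0, 521 and 145 CPM in Selp_high paHSCs. Selp_low replicate 1 was within the range of the yHSCs, and the other 2 Selp_low libraries lay between the yHSCs and the Selp_high paHSCs. *Gp9* (ENSMUSG00000030054, chr6:87755054-87756750, plus strand), a small chain that the complex needs to reach the surface, was at 21.0, 17.0 and 18.5 CPM in yHSCs, 25.8, 36.8 and 59.1 CPM in Selp_low paHSCs and 67.6, 176 and 84.8 CPM in Selp_high paHSCs. *Gp9* was the gene whose 3 groups did not overlap at all, in the order yHSCs, Selp_low and Selp_high paHSCs, and its yHSC libraries were within 1.24 times of each other. Per length, *Gp9* stood above *Gp1ba* in all 9 libraries, by 1.85 to 4.41 times in Selp_high paHSCs, 6.51 to 14.6 times in Selp_low paHSCs and at least 4.71 times in yHSCs. The fourth chain, *Gp1bb*, had 36 counts over all 9 libraries and was not tested. In the authors' annotation it shares 1902 of its 2087 bases with *Septin5* on the same strand, which had 570 counts, so how many of its reads were lost in counting cannot be read from the file.

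The promoters of *Gp1ba* and *Gp5* are shown because these 2 genes had the most similar profiles among the 9, and that of *Pear1* because it formed the least similar pair, with *Treml1* (profiles are compared after the levels). Each is the 250 bases before the transcription start in RefSeq (GRCm38.p6, a build other than that of the counts), written 5′ to 3′ on the strand of the gene, with GATA words in capitals. These words are AGATAA and AGATAG, or their forms TGATAA and TGATAG, on either strand. They span chr11:70638872-70639121 (*Gp1ba*, plus strand), chr16:30310782-30311031 (*Gp5*, minus strand) and chr3:87768954-87769203 (*Pear1*, minus strand).
Gp1ba: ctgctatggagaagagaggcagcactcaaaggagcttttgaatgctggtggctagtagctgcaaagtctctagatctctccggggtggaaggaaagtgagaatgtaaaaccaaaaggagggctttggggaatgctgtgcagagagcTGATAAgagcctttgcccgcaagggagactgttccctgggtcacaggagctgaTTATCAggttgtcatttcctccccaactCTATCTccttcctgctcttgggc
Gp5: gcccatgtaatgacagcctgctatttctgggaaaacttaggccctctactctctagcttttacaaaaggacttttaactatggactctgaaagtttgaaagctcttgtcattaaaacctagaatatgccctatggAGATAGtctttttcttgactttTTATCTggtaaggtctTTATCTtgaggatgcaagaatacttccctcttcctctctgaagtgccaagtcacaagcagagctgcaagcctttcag
Pear1: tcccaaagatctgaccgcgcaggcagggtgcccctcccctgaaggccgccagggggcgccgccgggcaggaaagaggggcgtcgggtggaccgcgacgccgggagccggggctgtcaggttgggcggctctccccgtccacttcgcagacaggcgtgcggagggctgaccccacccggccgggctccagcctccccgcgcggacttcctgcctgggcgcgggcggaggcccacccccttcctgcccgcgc
RefSeq gave such a promoter for 8 of the 9 genes, all but *Itgb3*. *Gp1ba* and *Gp5* held 3 GATA words each, a number that 1.35% of all 32851 promoters of this length reach, *Gp6* and *Clec1b* held 1 each, and *Itga2b*, *Gp9*, *Treml1* and *Pear1* held none. The cut-off of 3 was not planned and follows the count in these 2 promoters, so the 1.35% is no test of enrichment. At least 1 such word is found in 26.5% of all promoters, against 4 of these 8. ETS words (CAGGAAG or CCGGAAG, either strand) were in the promoters of *Gp1ba* and *Pear1*, and in 17.0% of all. RUNX words (TGTGGT or TGCGGT, either strand) were in that of *Gp9*, and in 18.6% of all. The *Pear1* promoter had a G and C content of 76.8%, against a median of 52.4% over all promoters and 33.2 to 57.6% in the other 7. These are matches of letters and not sites of binding, and none of these data measured binding.

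*Gp6* (ENSMUSG00000078810, chr7:4366964-4400743, minus strand), the collagen receptor, was the least abundant of the 9 genes per length in all 6 libraries outside the Selp_high paHSCs. It was at 0.542, 1.65 and 1.56 CPM in yHSCs, 0.459, 2.77 and 0.637 CPM in Selp_low paHSCs and 18.6, 159 and 3.06 CPM in Selp_high paHSCs. The Selp_low values rest on 14 to 42 counts and the Selp_high values on 107 to 6437 counts. The Selp_high libraries thus spanned 51.7 times, the widest spread of any receptor gene in any group, and the lowest of them was only just above the highest Selp_low library. Its signalling partner *Fcer1g*, which myeloid cells also use with Fc receptors, had another pattern: it was highest in Selp_low replicate 3 (721 CPM) and yHSC replicate 1 (275 CPM), the libraries with the highest neutrophil markers of their groups, and at 80.3, 121 and 227 CPM in Selp_high paHSCs. *Clec1b* (ENSMUSG00000030159, chr6:129374260-129386298, plus strand) was at 2.23, 1.65 and 5.93 CPM in yHSCs, 5.87, 12.6 and 14.6 CPM in Selp_low paHSCs and 50.8, 458 and 40.7 CPM in Selp_high paHSCs. Its Selp_high replicates 1 and 3 were close, and replicate 2 stood far above both. *Clec1b* shares 474 bases with *Clec9a* on the same strand, whose counts came to 2.08% of its own.

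*Treml1* (ENSMUSG00000023993, chr17:48666944-48674204, plus strand) was at 3.79, 3.50 and 5.50 CPM in yHSCs, 5.80, 47.4 and 61.2 CPM in Selp_low paHSCs and 36.9, 232 and 118 CPM in Selp_high paHSCs. It had the widest spread within the Selp_low paHSCs, 10.6 times between replicates 1 and 3, and Selp_low replicates 2 and 3 lay above Selp_high replicate 1. *Pear1* (ENSMUSG00000028073, chr3:87655197-87731613, minus strand) was the exception among the 9. It was at 30.2, 117 and 160.5 CPM in yHSCs, 43.5, 35.4 and 45.5 CPM in Selp_low paHSCs and 120.2, 162 and 104 CPM in Selp_high paHSCs. Replicates 2 and 3 of the yHSCs were thus at the Selp_high level and replicate 1 below every paHSC library, while the Selp_high and Selp_low libraries lay apart with little spread. *Pear1* spans *Insrr* on the opposite strand, which had 11.3% as many counts, and without a stated strand setting the reads of the overlap cannot be assigned.

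Per length, *Itga2b* and *Gp9* held 2 of the first 3 places among the 9 genes in every library, and *Gp6* one of the last 2. In Selp_high paHSCs *Itga2b* was at 80.9 to 333 FPKM, *Gp9* at 76.7 to 200.1 FPKM and *Gp5* at 40.5 to 237 FPKM. These ranges overlap, but within each Selp_high library *Itga2b* was the highest of them. *Gp9* was above *Gp5* in replicates 1 and 3 and below it in replicate 2. *Treml1* (26.3 to 166 FPKM) and *Gp1ba* (17.4 to 108 FPKM) overlapped with them and with *Itgb3* (13.1 to 45.5 FPKM) and *Clec1b* (7.97 to 89.7 FPKM). *Pear1* (15.3 to 23.9 FPKM) overlapped with *Gp1ba* but lay below *Treml1*. *Gp6* was at 0.519 to 26.9 FPKM. In yHSCs *Gp9* (19.3 to 23.9 FPKM) and *Itga2b* (9.06 to 18.8 FPKM) did not overlap, and *Pear1* ranged from 4.45 to 23.7 FPKM, the first place in 1 library. *Gp5* followed at 5.79 to 8.69 FPKM, and the remaining 5 genes were each under 5 FPKM in all 3 yHSC libraries.

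Between the 2 fractions of paHSCs, the values of all 9 genes were higher on average in the Selp_high cells, by log2 fold changes from 1.43 (*Gp9*) to 5.58 (*Gp6*), with a median of 2.29 against -0.11 over all 20370 genes tested. None of the 9 passed the test (edgeR's quasi-likelihood test with Benjamini-Hochberg adjustment, where a call needs p at or under 0.05 and a log2 fold change of 1 or more in size), which called 0% of all genes in this comparison. At an unadjusted p under 0.05, 8 of the 9 were higher, against 6.88% of all genes, and DESeq2 called 3 of the 8 for which it gave a p, against 0.802% of all genes. The libraries of the 2 fractions did not overlap for 7 of the 9, all but *Itgb3* and *Treml1*, against 10.3% of all genes higher without overlap.

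*Pear1* had the narrowest interval in this comparison, with a log2 fold change of 1.63 (SE 0.27, 95% interval 1.00 to 2.25) and an adjusted p of 0.338 by edgeR and 0.0131 by DESeq2. *Gp6* had the largest difference but an interval of 1.83 to 9.33 (SE 1.58), with the same edgeR p and 0.000350 by DESeq2. *Gp1ba* was at 3.37 (SE 0.84, interval 1.37 to 5.36), with a DESeq2 adjusted p of 0.00311. For *Clec1b* the log2 fold change was 4.05 (SE 1.06, interval 1.55 to 6.55), and DESeq2 gave no p. For the other 5 the log2 fold changes were 2.50 (*Gp5*, SE 0.84), 2.29 (*Itga2b*, SE 0.84), 1.76 (*Treml1*, SE 0.93), 1.51 (*Itgb3*, SE 0.57) and 1.43 (*Gp9*, SE 0.47), and neither tool called them. Over the 23 alternatives of processing and test, adjusted p ranged from 2.32e-10 to 0.882 for *Gp1ba*, from 4.48e-11 to 0.882 for *Gp6* and from 2.19e-05 to 0.882 for *Pear1*. The interval of *Treml1*, -0.43 to 3.95, was the one that held 0, and with the replicate number as a block it was 1.01 to 2.91.

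Equal replicate numbers were taken to pair the 2 fractions (residual correlations in the account of processing), but the labels do not say what a number marks. Within each of the 3 pairs so formed, every one of the 9 genes was higher in the Selp_high library. For the 7 genes without overlap this holds under any matching of the libraries. The share of all genes higher in all 3 pairs was not computed. The ratio of CPM in pairs 1, 2 and 3 was 9.26, 7.19 and 2.99 for *Itga2b*, 8.64, 16.8 and 3.88 for *Gp1ba* and 40.5, 57.3 and 4.81 for *Gp6*. Pair 3 had the smallest ratio for all 9 genes, down to 1.43 for *Gp9* and 1.49 for *Itgb3*, and *Pear1* had ratios of 2.76, 4.58 and 2.28. With the replicate number as a block, DESeq2 called 9 of 9 genes, against 4.61% of all genes called higher, with adjusted p from 4.48e-11 (*Gp6*) to 0.00609 (*Gp9*), while edgeR with the same block called none, with adjusted p from 0.0882 (*Gp1ba*) to 0.161 (*Gp9*).

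Leaving out Selp_high replicate 2, the library with the most megakaryocyte marker transcripts, lowered the log2 fold change of *Clec1b* from 4.05 to 2.04, of *Gp6* from 5.58 to 3.09 and of *Gp1ba* from 3.37 to 2.07. *Itgb3* then stood at 0.85 and *Gp9* at 0.90, and all 9 stayed above 0. Across the 6 libraries left out in turn, edgeR called 0 of the 9 each time and at most 0.00446% of all genes higher. DESeq2 called 3 to 6, against 0.332% to 1.88% of all genes higher, among them *Gp1ba* and *Clec1b* in all 6 fits. The fits without Selp_low replicate 2 and replicate 3, the 2 libraries rich in B cell and neutrophil transcripts, gave DESeq2 calls for 3 genes (0.332% of all genes) and 6 genes (1.88%). Without Selp_low replicate 1, which with replicate 2 was high in *Cd48*, there were 4 (1.59%).

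**Figure D2:**
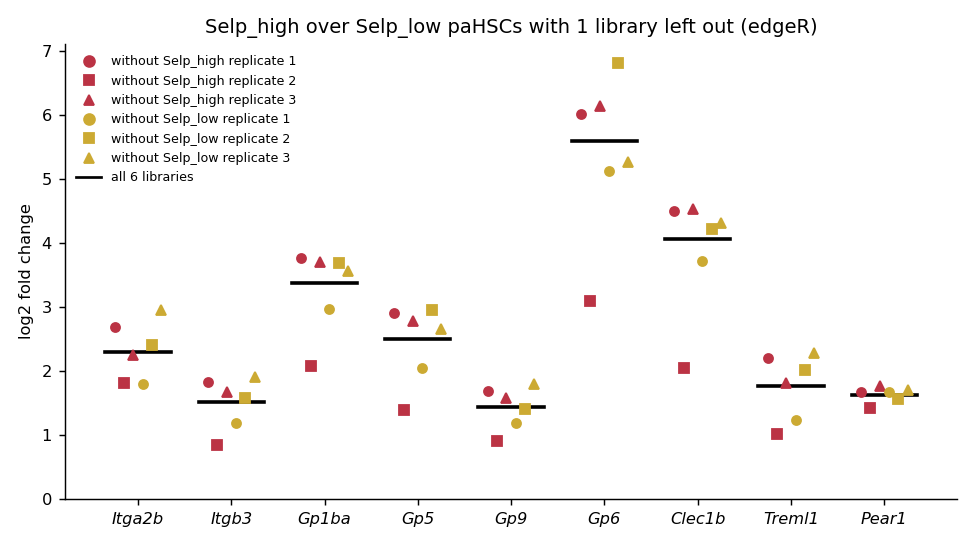
Log2 fold change (edgeR) of each receptor gene between Selp_high and Selp_low paHSCs with 1 library left out; red markers leave out a Selp_high library, yellow markers a Selp_low library, and the bar is the value from all 6. Without Selp_high replicate 2 (red square) the values of *Gp6* and *Clec1b* are 3.09 and 2.04, and every value is above 0.

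Between Selp_high paHSCs and yHSCs the median log2 fold change of the receptor genes was the largest of the 3 comparisons, 3.98 against -0.03 over all 20017 genes tested. edgeR called 0 of the 9 and 0.165% of all genes (33 genes, *Selp* among them with an adjusted p of 0.0324). At an unadjusted p under 0.05, 8 of the 9 were higher, against 4.48% of all genes. DESeq2 called 7 of the 8 with a p, against 2.05% of all genes, and the libraries of 8 genes did not overlap, against 8.52%. *Pear1* was tested under each of these criteria and met none of them.

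*Treml1* came closest to the edgeR threshold, with a log2 fold change of 4.91 (SE 0.69, 95% interval 3.28 to 6.53), an adjusted p of 0.0684 by edgeR and 8.56e-13 by DESeq2. *Itga2b* followed at 3.79 (SE 0.58, interval 2.43 to 5.14), with adjusted p of 0.0888 and 1.24e-09, and *Itgb3* at 3.44 (SE 0.54, interval 2.17 to 4.70), with 0.0918 and 3.22e-08. Without Selp_high replicate 1 edgeR called *Itga2b* and *Treml1*, and 0.131% of all genes higher. Over the 23 alternatives the adjusted p of *Treml1* ranged from 4.33e-30 to 0.379 and that of *Itga2b* from 4.71e-24 to 0.518. In the von Willebrand factor receptor the log2 fold changes were 4.13 for *Gp1ba* (SE 0.83), 3.98 for *Gp5* (SE 0.70) and 2.51 for *Gp9* (SE 0.42), with edgeR adjusted p of 0.163, 0.119 and 0.101, and DESeq2 called all 3. *Gp6* (5.58, SE 1.43) was called by DESeq2, and *Clec1b* (5.83, SE 1.17) had no DESeq2 p with all 6 libraries but was called in each of the 6 fits with 1 library left out, which called 1.20% to 2.75% of all genes higher. Without Selp_high replicate 2 the log2 fold change of *Gp6* was 3.09, that of *Clec1b* 3.80, that of *Gp1ba* 2.81 and that of *Gp5* 2.84.

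For *Pear1* the log2 fold change between Selp_high paHSCs and yHSCs was 0.33 (SE 0.53), and its interval, -0.91 to 1.57, covers no difference as well as a 2-fold rise. Its sign turned with the processing: it was -0.10 with limma voom and quality weights, and -0.099 without yHSC replicate 1.

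Between Selp_low paHSCs and yHSCs the median over the 9 genes was 1.54, against 0.08 over all 20437 genes tested. edgeR called 0 of the 9 and 0% of all genes, 5 of the 9 were higher at an unadjusted p under 0.05 against 7.11% of all genes, and DESeq2 called *Itgb3* and *Treml1*, against 1.79% of all genes. The libraries did not overlap for *Itgb3*, *Gp9* and *Treml1*, against 9.59% of all genes higher and 6.74% lower without overlap, the latter with 0 of the 9. *Treml1* had a log2 fold change of 3.20 (SE 0.80, 95% interval 1.29 to 5.10), with an adjusted p of 0.332 by edgeR and 0.00593 by DESeq2. *Itgb3* was at 1.99 (SE 0.44, interval 0.95 to 3.04), with 0.332 and 0.0248. Over the 23 alternatives the adjusted p of *Treml1* ranged from 6.67e-14 to 0.981 and that of *Itgb3* from 0.000603 to 0.981. *Clec1b* (1.81, SE 0.61), *Itga2b* (1.55, SE 0.70), *Gp5* (1.54, SE 0.56) and *Gp9* (1.14, SE 0.34) were called by neither.

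Intervals that held 0 were those of *Itga2b*, -0.12 to 3.23, *Gp1ba* (0.84, SE 0.55), *Gp6* (0.11, SE 0.93) and *Pear1*. The value of *Itga2b* was 0.34 with voom. The interval of *Gp6*, -2.10 to 2.33, spans a large fall and a large rise; without Selp_low replicate 2 its value was -1.18. *Pear1* was the gene with a value below 0, at -1.23 (SE 0.53, interval -2.50 to 0.035), with adjusted p of 0.457 by edgeR and 0.378 by DESeq2. Without yHSC replicate 1 DESeq2 called it, at an adjusted p of 0.000686, the lowest of its 23 alternatives. All 3 comparisons share samples, with each of the 3 groups in 2 of them, so that agreement between them is not independent.

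**Figure D3:**
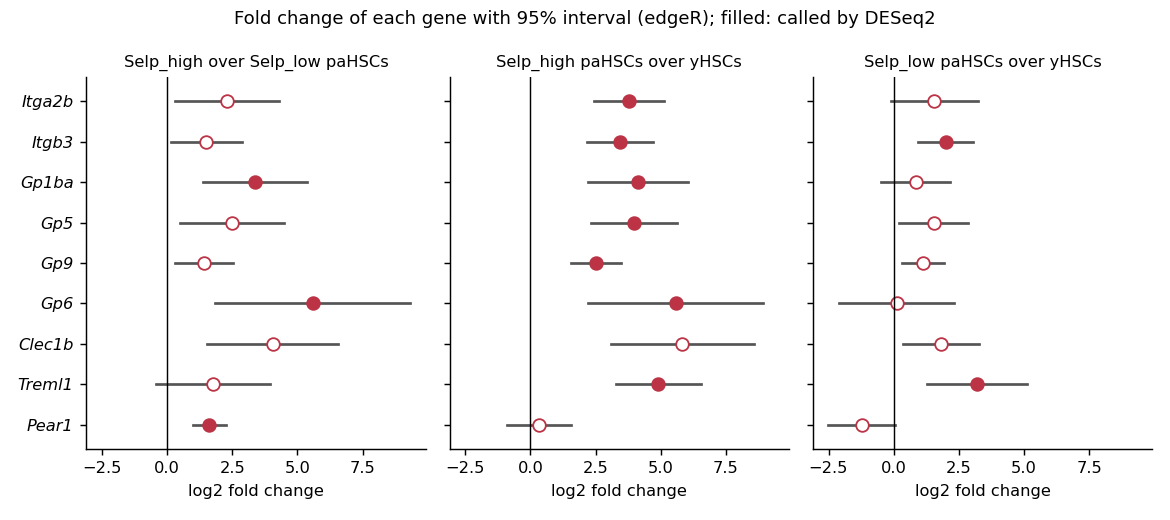
Log2 fold change of each receptor gene (point) with its 95% interval (line) from edgeR in the 3 comparisons; a filled point was called by DESeq2. In the first 2 panels all points lie above 0, that of *Pear1* against yHSCs turning below 0 with voom or without yHSC replicate 1, and *Pear1* is at 1.63, 0.33 and -1.23 from left to right.

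Within the 9 genes, profiles were compared by the root mean square difference of log2 CPM after centring each gene on its own mean over the 9 libraries, as a description. *Gp1ba* and *Gp5* were closest, at 0.43, followed by *Itga2b* and *Gp5* at 0.46, while the 2 integrin chains differed by 0.65 from each other, more than either differed from *Gp5* (0.56 for *Itgb3*). *Pear1* was at 1.18 from *Gp9* and 2.15 from *Treml1*. Among 15767 protein-coding genes, the nearest to *Itga2b* were *Gp5* (0.46), *Gnaz* (0.46), a G protein alpha subunit found in platelets, and *Vwf* (0.54), against a median of 1.89 over all genes. Those nearest to *Gp9* were *Nckap1* (0.29), a part of the WAVE complex of actin assembly, *Nrgn* (0.35), which encodes a calmodulin-binding protein of neurons and platelets, and *Dlg2* (0.37), a scaffold protein, against a median of 1.26. All 9 libraries share their depth and makeup across these genes.

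Of 28 other platelet surface receptors, 24 of 26 tested had a value above 0 between the paHSC fractions, against 44.8% of all genes. Their median log2 fold change was 1.30. edgeR called 0, and at an unadjusted p under 0.05, 14 were higher, against 6.88% of all genes, and 1 was lower. Without overlap 12 were higher, against 10.3% of all genes. DESeq2 called 6 higher, against 0.802%, among them *Mpig6b*, *P2rx1*, *Jam3*, *Cd151* and *Esam*, the last also on the HSC marker list. *Mpig6b*, which encodes the inhibitory receptor G6b-B of megakaryocytes, was at 0.262, 1.98 and 1.50 CPM in Selp_low paHSCs and 13.3, 105 and 7.73 CPM in Selp_high paHSCs (log2 fold change 5.09, SE 1.28; adjusted p 0.338 by edgeR and 0.000158 by DESeq2). *P2ry12*, an ADP receptor, had a log2 fold change of 5.52 (SE 2.32) that rested on Selp_high replicates 1 and 2 (15.7 and 143 CPM), with replicate 3 at a count of 0. *Cd40lg*, a ligand of T cells as well as platelets, had the largest value below 0 (-5.68, SE 2.15), with 10.7 and 15.5 CPM in Selp_low replicates 1 and 2, 0.443 CPM or less in Selp_high paHSCs and a count of 0 in Selp_low replicate 3. T and NK cell markers summed to 640 to 1509 CPM in Selp_low paHSCs and 169 to 183 CPM in Selp_high paHSCs, and their part in the *Cd40lg* values was not tested.

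Against yHSCs, 23 of 25 of these receptors were above 0 in Selp_high paHSCs (median 1.37), and 47.8% of all genes. edgeR called 0, against 0.165% of all genes. At an unadjusted p under 0.05, 16 were higher, against 4.48%, and DESeq2 called 9, against 2.05%. *Mpig6b* (6.63, SE 1.20), *Cd226* (5.67, SE 1.67), an adhesion receptor, and *F2rl2* (4.69, SE 0.90), the thrombin receptor PAR3, had the largest values, and DESeq2 called all 3. *F2rl2* was at 3.15, 6.63 and 8.01 CPM in yHSCs, 3.47, 53.6 and 54.2 CPM in Selp_low paHSCs and 22.6, 275 and 165 CPM in Selp_high paHSCs, with replicate 1 lowest in each group. In Selp_low paHSCs against yHSCs the list was balanced, with 14 of 25 above 0, against 55.1% of all genes, and a median of 0.01. At an unadjusted p under 0.05, 2 were higher, against 7.11% of all genes, and 1 was lower. There were 0 calls by either tool. *F2rl2* (2.70, SE 0.93), *Cd226* (2.28, SE 1.32) and *P2ry1* (1.98, SE 0.71), an ADP receptor, had the largest values there.

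Among 12 ligands of the receptors, *Vwf*, which encodes von Willebrand factor, the ligand of the complex of *Gp1ba*, was the one that passed the edgeR test. It was at 15.7, 25.3 and 17.6 CPM in yHSCs, 36.8, 76.2 and 156 CPM in Selp_low paHSCs and 151, 481 and 323 CPM in Selp_high paHSCs. In Selp_high paHSCs against yHSCs it rose by a log2 fold change of 3.99 (SE 0.49), with an edgeR adjusted p of 0.0401, and in Selp_low paHSCs its value was 2.23 (SE 0.52), with 0.332 by edgeR and 0.0222 by DESeq2. Between the fractions the value was 1.83 (SE 0.62), and Selp_high replicate 1 stood just below Selp_low replicate 3. *Pdpn*, which encodes podoplanin, the ligand of CLEC-2, was at 2.71 CPM or less in every library. *Col1a2*, a collagen I chain, was called by DESeq2 between the fractions (2.00, SE 0.45; adjusted p 0.0164) at 3.93 to 5.43 CPM in Selp_low and 11.6 to 28.4 CPM in Selp_high paHSCs. *Thbs1*, which encodes thrombospondin, had the largest value of the list between the fractions (2.18, SE 1.15) and spread from 15.6 to 382 CPM within the yHSCs. The list medians were 0.29 between the fractions (9 tested), 0.12 for Selp_high paHSCs (8 tested) and -0.62 for Selp_low paHSCs (9 tested) against yHSCs.

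The 29 genes of receptor signalling and integrin activation were all tested. Their median was 0.27 between the fractions, against -0.11 over all genes, 0.06 against -0.03 for Selp_high paHSCs over yHSCs, and 0.09 against 0.08 for Selp_low paHSCs over yHSCs. edgeR called 0 in each comparison. At an unadjusted p under 0.05 there were 3, 3 and 1 higher, against 6.88%, 4.48% and 7.11% of all genes. Those lower were 0, 0 and 2. DESeq2 called *Rap1b*, the small GTPase that switches the integrin to its binding state, in Selp_high paHSCs against yHSCs (1.59, SE 0.43; adjusted p 0.333 by edgeR and 0.0399 by DESeq2). *Rap1b* was at 623, 483 and 534 CPM in yHSCs, 842, 1329 and 1803 CPM in Selp_low paHSCs and 747, 2492 and 1797 CPM in Selp_high paHSCs. Its paHSC fractions overlapped, while all 6 paHSC libraries lay above the yHSCs. *Src* (1.86, SE 1.09), *Prkcq* (1.32, SE 0.26) and *Fermt3* (0.99, SE 0.34), which encode a kinase, protein kinase C theta and kindlin-3, had the largest values between the fractions, and *Prkcq* was at 38.8 to 57.6 CPM in Selp_low and 105 to 140.4 CPM in Selp_high paHSCs. *Ptpn11* (1.05, SE 0.37) and *Vav3* (-0.97, SE 0.48) followed *Rap1b* in Selp_high paHSCs against yHSCs, and *Rap1b* (1.31, SE 0.36), *Vav3* (-1.28, SE 0.35) and *Pik3cg* (-1.05, SE 0.42) led in Selp_low paHSCs. The receptor genes thus had a larger median than the signalling genes in each comparison, and that difference between lists was not tested.

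**Figure D4:**
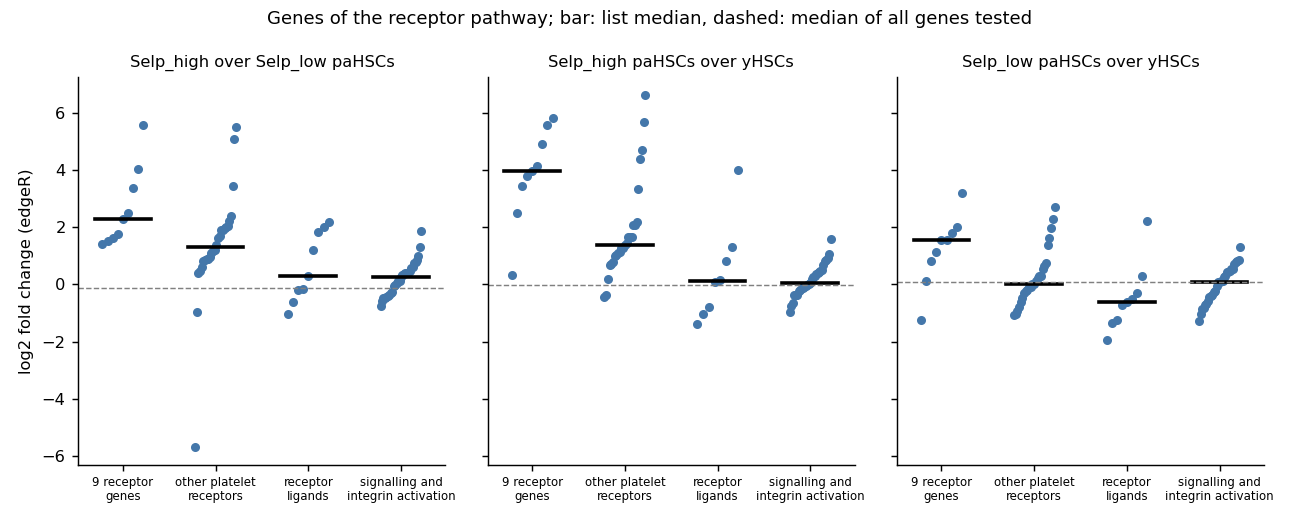
Log2 fold change (edgeR) of every tested gene of the 9 receptors, the other platelet receptors, the receptor ligands and the signalling genes in the 3 comparisons; the bar is the list median and the dashed line the median of all genes tested. The bar of the 9 receptors is at 2.29, 3.98 and 1.54, and that of the signalling genes at 0.27, 0.06 and 0.09.

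Of the 19 megakaryocyte and platelet markers that are no receptors, 19 had values above 0 between the fractions (median 1.53). In Selp_high paHSCs against yHSCs 19 were above 0 (median 2.23), and in Selp_low paHSCs against yHSCs 13 (median 0.51). Of all genes, 44.8%, 47.8% and 55.1% were above 0 in these 3 comparisons. In the same order edgeR called 0, 2 and 0, against 0%, 0.165% and 0% of all genes. DESeq2 called 7, 14 and 3, against 0.802%, 2.05% and 1.79% of all genes called higher. *Tubb1* (6.56, SE 1.73), *Slc6a4* (5.94, SE 1.56) and *Alox12* (5.66, SE 1.14), which encode beta-1 tubulin, the serotonin transporter and a platelet lipoxygenase, led between the fractions. *Tubb1* was at 207, 1069 and 14.7 CPM in Selp_high paHSCs and 1.51, 10.6 and 1.61 CPM in Selp_low paHSCs, so that it was lowest in Selp_high replicate 3, as *Gp6*, *Clec1b* and *Pear1* were. *Pf4*, platelet factor 4, had another order, with 78.2, 2179 and 2053 CPM in Selp_high paHSCs and 36.6, 1143 and 1438 CPM in Selp_low paHSCs, where replicate 1 was far below the others in both fractions. The part of these markers in the receptor values was not tested.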

How the data were processed

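The 9 RNA-seq libraries form 3 groups of 3. The authors extracted total RNA (RNeasy Mini), made cDNA with the SMARTer Ultra Low RNA kit and libraries with TruePrep, trimmed reads with fastp, aligned them with HISAT2 2.2.1 to mm39 and counted them with featureCounts 2.0.6, per their methods and processing notes. The deposited values are raw counts per gene, without normalization, beside gene lengths. The annotation release, like the strand setting and the rule for multi-mapping reads, was not given in the sources used here. 0 columns of per-sample values were left unused.

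Each pair of groups was fitted alone in R 4.3.3 with edgeR 4.0.16 (TMM, filterByExpr by group, quasi-likelihood test with the legacy setting, Benjamini-Hochberg over all genes tested). A call needed p after adjustment at or under 0.05 and a log2 fold change of 1 or more in size. CPM used TMM factors of the genes that passed the filter over all groups. Profiles used a prior count of 2. DESeq2 1.42.0, the tool and version the study used, and limma 3.58.1 (voom) were alternatives, with other normalizations and filters, a replicate block, 1 fit of all 9 libraries and each library left out; DESeq2 with a library left out was added after seeing the data. Figures were drawn with Python 3.11.15 and matplotlib 3.10.9. The steps were tested on simulated data. Depth was 24866975 to 35375310 counts per library.

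Equal replicate numbers were taken to pair Selp_high and Selp_low paHSCs, since the residuals of same-numbered libraries correlated at 0.199, 0.320 and 0.325, all above the 0.1 taken as pairing; the labels do not say what a number marks. With yHSCs the correlations were between -0.408 and 0.0874, the former larger in size than any between the fractions, and no pairing was taken. Correlations of libraries with different numbers were not computed, so the pairing of the fractions is an assumption. The study calls the libraries of a group biological replicates; the labels do not say which mice each came from, so p-values measure the spread between these libraries.

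The 9 genes and all lists were chosen with earlier results of these data known. Lists came from general knowledge. The text names all 9 genes, their partners *Gp1bb* and *Fcer1g*, the ligands *Vwf* and *Pdpn*, *Selp*, up to 3 genes of largest change per list and comparison, and the 3 nearest profiles of *Itga2b* and *Gp9*. Genes named outside this rule, after their values were seen, were the DESeq2 calls *P2rx1*, *Jam3*, *Cd151* and *Esam*, the overlapping genes, *Pf4*, *Cd34*, *Flt3*, *Cd48*, *Cdh5* and *Tek*. One gene of a list is not reported here by name.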

Additional observations from a re-analysis of the deposited data

How the results depend on the processing

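Between the paHSC fractions, the number of the 9 genes called (0 by edgeR) was 4 without a filter on low counts, 3 with DESeq2 and 9 with DESeq2 and the replicate block, in fits that called 0.179%, 0.802% and 4.61% of all genes higher. With 1 library left out it was 0 to 0 with edgeR and 3 to 6 with DESeq2. For Selp_high paHSCs against yHSCs (0 by edgeR) it was 8 without the filter, 7 with DESeq2, 4 with the newer quasi-likelihood setting, 6 with voom and 8 with DESeq2 and the replicate block, in fits that called 0.798%, 2.05%, 0.300%, 0.869% and 2.36% of all genes higher. With 1 library left out it was 0 to 2 (edgeR) or 8 to 8 (DESeq2). For Selp_low paHSCs against yHSCs (0 by edgeR) it was 2 without the filter, 2 with DESeq2 and 3 with DESeq2 and the replicate block, in fits that called 0.664%, 1.79% and 1.48% of all genes higher. With 1 library left out it was 0 to 0 (edgeR) or 0 to 5 (DESeq2, 0.461% to 7.85% of all genes higher). There 0 came without Selp_low replicate 2 or yHSC replicate 2 and 5 without Selp_low replicate 1. By the labels all pairs share only a number, and with yHSCs no pairing was taken. The edgeR fit with the replicate block called 0 of the 9 genes in each comparison.

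Sign changes were confined to 2 genes among the alternatives run, each in a comparison in which it was not called. *Pear1* in Selp_high paHSCs against yHSCs was at -0.10 with voom, and at -0.099 (edgeR) and -0.059 (DESeq2) without yHSC replicate 1; with 1 library left out it ranged from -0.099 to 0.74. *Gp6* in Selp_low paHSCs against yHSCs was at -0.051 without the filter, -0.0091 in 1 fit of all 9 libraries, -0.86 with voom, -0.21 (edgeR) and -0.25 (DESeq2) with the replicate block, -0.33 (edgeR) and -0.27 (DESeq2) without yHSC replicate 1, and -1.18 (edgeR and DESeq2) without Selp_low replicate 2, and ranged from -1.18 to 0.51 with 1 library left out. The cause was not tested. Summed levels of the 9 genes per group moved by less than the spread between libraries under other scaling factors, and the nearest profiles kept all 3 genes with a prior count of 0.5. With 14 to 42 counts in the Selp_low libraries, *Gp6* is the gene whose level is limited most by depth.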

Other observations

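Within the Selp_high paHSCs, the libraries did not rank alike by *Selp* and by the receptor genes. *Selp* was at 652, 265 and 264 CPM in replicates 1, 2 and 3, while the 9 receptor genes summed to 949, 4085 and 1904 CPM. Replicate 1, with the most *Selp*, thus had the lowest receptor sum. In the Selp_low paHSCs *Selp* was at 109, 29.3 and 93.3 CPM beside receptor sums of 175, 527 and 742 CPM. With 3 libraries a group, no correlation was computed.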
